A study of Mus musculus with 36 samples.

Results

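Noncoding transcripts that host small nucleolar RNAs (snoRNAs) were followed in tumour-associated macrophages (TAMs) and CD8+ T cells. They were 7 of the 24781 genes in the deposited table: *Gas5*, *Snhg1*, *Snhg3*, *Snhg5*, *Snhg6*, *Snhg8* and *Snhg12*. The set was chosen by gene name, with *Gas5* known to be higher in TAMs of GABA-treated *muMt*-/- mice than in those of WT mice, so that this difference is given as a description without a test. All 7 passed the filter on low counts in each cell type, a mean over 1 molecule after normalization, and were tested.

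Host genes of this kind are spliced, and their introns release snoRNAs, which guide the modification and processing of ribosomal and other RNAs. Many of them start with a pyrimidine run that they share with ribosomal protein genes, and many of the spliced host RNAs are removed by nonsense-mediated decay. *Gas5* was named for its rise in growth-arrested cells, and its RNA can bind the glucocorticoid receptor.

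The mice carried tumours of MC38, a colon adenocarcinoma line, and were WT, *muMt*-/-, which lack mature B cells, or *muMt*-/- with an implanted pellet that releases GABA. The *muMt*-/- mice were C57BL/6J and the WT mice C57BL/6J or C57BL/6N, aged 2 to 5 months. Which of these substrains the WT libraries came from is not stated, so that a difference in substrain between WT and *muMt*-/- is not excluded. The labels name no treatment for the first and second of these groups, and the paper describes placebo pellets for them. On day 7, TAMs (CD45+CD11b+F4/80 hi) and CD8+ T cells (CD45+TCRβ+CD8+) were sorted, and 100 cells went into each digital RNA sequencing library. There were 6 libraries in each of 6 groups, 36 in all, and the paper states 1 library per mouse. Whether a TAM and a CD8+ library of equal number shared a mouse is not stated, and comparisons between cell types were fitted as unpaired.

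TAM libraries held 100254 to 304100 molecules and CD8+ T cell libraries 22896 to 98015. Mean depth in TAMs was 244711 molecules in WT, 164578 in *muMt*-/- and 201314 in GABA-treated mice. In CD8+ T cells the means were 43807, 67277 and 81364. Macrophage markers summed to 12973, 10475 and 10597 CPM (molecules scaled to an equal library total) in the TAM groups, with *Apoe* the most abundant. T cell markers summed to 4317, 3646 and 3813 CPM in the CD8+ groups, with *Thy1* the most abundant, and *Cd8a* gave 722 molecules there against 5 in TAMs. Of the B cell markers, *Cd79b* had 19 molecules in TAMs and 5 in CD8+ T cells, *Ms4a1* 1 and 0, and *Cd79a* and *Pax5* 0 in all libraries. B cell markers together averaged 4.17, 5.13 and 7.83 CPM in the TAM groups and were not lower in *muMt*-/- than in WT. The gene disrupted in *muMt*-/- mice was not analysed here, so the genotype was not checked on it.

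Macrophage RNA was not evenly spread over the CD8+ libraries. Its markers averaged 269 CPM in WT, 1333 in *muMt*-/- and 1225 in GABA-treated mice. In *muMt*-/- replicate 1 they reached 3967 CPM against 1622 for T cell markers, and in GABA-treated replicate 1 they reached 2459 against 2051. Comparisons of CD8+ T cells were also made without these 2 libraries, whereas GABA-treated replicate 3, at 2478 against 2804, was kept, a step added after the marker values were seen. In sorted cells counted in bulk, fewer cells of a type and less RNA per cell cannot be told apart.

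*Gas5* gave 1641 molecules over the 36 libraries, *Snhg6* 403, *Snhg8* 319, *Snhg3* 258, *Snhg5* 166, *Snhg12* 118 and *Snhg1* 116. On the scale of molecules per gene, *Gas5* was highest in every library of all 6 groups and *Snhg6* was next by group mean. From *Snhg6* down the libraries overlapped between neighbours in the order, except for *Snhg3* above *Snhg5* in WT TAMs. Per kilobase of the longest annotated transcript, the *Gas5* mean of 15.3 molecules (SD 4.11) in WT TAMs took place 4, behind *Snhg3* at 17.1 (SD 4.11), *Snhg6* at 16.7 (SD 5.10) and *Snhg8* at 15.6 (SD 4.22), differences smaller than these SDs. It was first per kilobase in the other 5 groups, ahead of *Snhg6*. In *muMt*-/- TAMs the means were 19.6 (SD 5.51) and 13.0 (SD 9.42). In *muMt*-/- CD8+ T cells they were 11.9 (SD 4.70) and 8.24 (SD 3.53), and in both groups the difference was smaller than the larger SD. The longest annotated transcripts of 5 of the 7, all but *Snhg5* and *Snhg6*, keep snoRNA sequence in their exons, among them those of *Gas5* and *Snhg1* with 2556 and 2728 bases, so that these lengths may not be those of the molecules counted.

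In WT TAMs, *Gas5* had a lowest, median and highest normalized number of 25.4, 40.8 and 55.4 molecules. In *muMt*-/- TAMs the values were 27.7, 50.3 and 65.8, and in GABA-treated *muMt*-/- TAMs they were 59.0, 66.3 and 131. All 6 GABA-treated libraries lay above all 6 WT libraries, whereas the *muMt*-/- libraries overlapped both. *Gas5* was chosen through the first of these differences, and how many of all genes separate in this way was not counted. The group means were 39.1 ± 10.5, 50.1 ± 14.1 and 76.5 ± 27.2 (SD, n = 6). The log2 fold change of GABA-treated against WT was 0.95 (SE 0.20), and without GABA-treated replicate 1, the library at 131, it was 0.75. That library also had the lowest macrophage marker sum of the TAM libraries, 7237 CPM, and the part of this in its *Gas5* value was not tested.

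**Figure D1:**
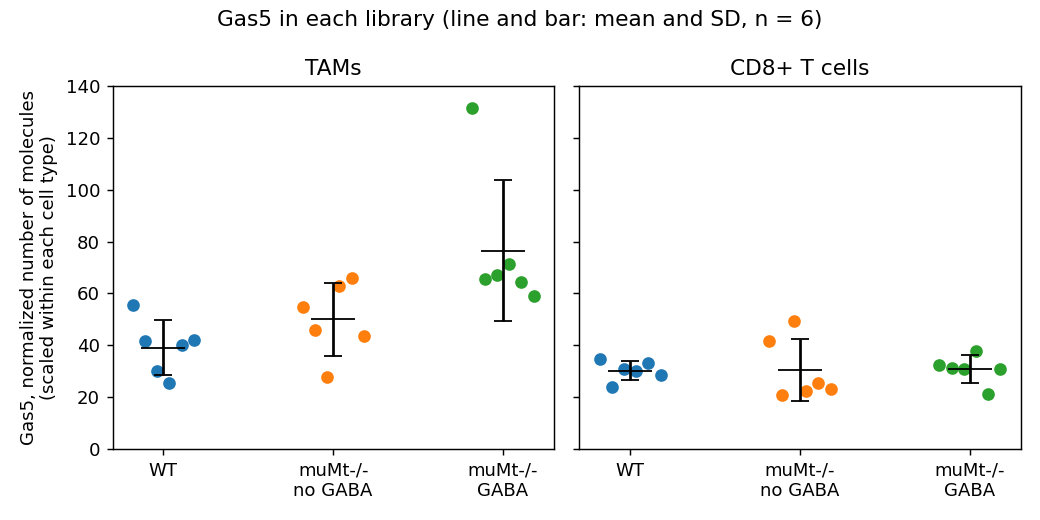
Normalized number of *Gas5* molecules in each library, with the mean and SD of each group of 6, scaled within TAMs (left) and within CD8+ T cells (right), so that heights are not comparable between the panels. In TAMs the GABA-treated libraries run from 59.0 to 131, above the highest WT library at 55.4. This is the comparison through which *Gas5* was chosen.

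Over all genes, 0.0739% passed an adjusted p of 0.05 in GABA-treated against WT TAMs, the comparison through which *Gas5* was chosen. The other 6 host transcripts had log2 fold changes from -0.08 for *Snhg8* to 0.44 for *Snhg5*. With 1 library left out *Snhg5* ran from 0.26 to 0.59 and *Snhg6* from 0.037 to 0.28. For each of these 6 the GABA-treated and WT libraries overlapped. *Snhg6*, for example, host of *Snord87*, had a lowest, median and highest value of 8.30, 14.8 and 19.6 in WT and 8.05, 15.9 and 23.9 in GABA-treated mice.

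The effect of lacking B cells was read from *muMt*-/- against WT TAMs, which shares the WT libraries with the choice of *Gas5*. Of the 7 host transcripts 0 were called by edgeR, and 0 had an unadjusted p under 0.05, against 2.05% of all genes called and 1408 of 9469 at that unadjusted level. DESeq2, whose own filter on low counts sets aside genes before p-values are adjusted, gave an adjusted p to 4 of the 7 and called 0. *Gas5* had a log2 fold change of 0.33 (SE 0.21, adjusted p 0.48). *Snhg5*, host of *Snord50a* and *Snord50b*, was at 0.00, and the other 5 had negative values, from -0.34 for *Snhg8* to -0.84 for *Snhg12*. With 1 library left out *Gas5* ran from 0.20 to 0.45, *Snhg8* from -0.70 to -0.19, *Snhg1* from -1.01 to -0.34 and *Snhg6* from -0.75 to -0.29. The median of the 7 was -0.44 and that of all genes -0.05. For every one of the 7 the libraries of both groups overlapped.

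The effect of the GABA pellet was read from GABA-treated against untreated *muMt*-/- TAMs, which shares the GABA-treated libraries with the choice of *Gas5*. All 7 log2 fold changes were positive, from 0.26 for *Snhg8* to 0.82 for *Snhg12*, with a median of 0.62 beside 0.06 for all genes. Of all genes 55.8% were positive. With any 1 library left out all 7 stayed positive. *Snhg8* then ran from 0.10 to 0.62, *Snhg1* from 0.34 to 1.02, *Snhg5* from 0.26 to 0.64 and *Snhg6* from 0.44 to 0.90. edgeR called 0 of 7, against 0.0211% of all genes. DESeq2 gave an adjusted p to 1 of the 7, *Gas5* (0.10), and its 0 calls say nothing of the other 6. At an unadjusted p under 0.05 there were 2, *Gas5* and *Snhg6*, beside 801 of all 9469 genes. *Gas5* had a log2 fold change of 0.62 (SE 0.20, adjusted p 0.31), with 3 of 6 GABA-treated libraries above every *muMt*-/- library, and *Snhg6* one of 0.68 (SE 0.33, adjusted p 0.59). Without GABA-treated replicate 1 the *Gas5* value was 0.43 (adjusted p 0.37). The libraries of both groups overlapped for all 7.

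**Figure D2:**
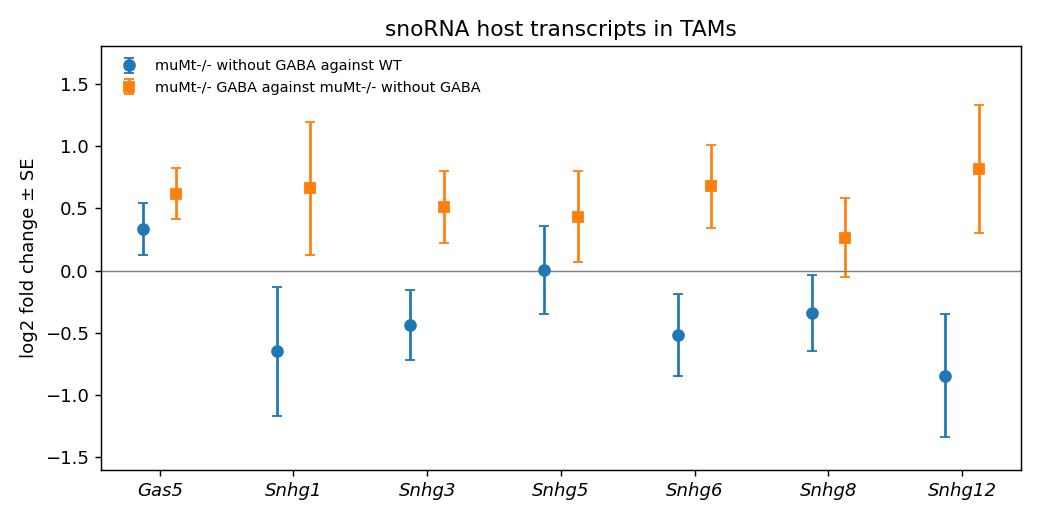
Log2 fold change of each host transcript in TAMs, with its SE, for *muMt*-/- without GABA against WT (circles) and GABA-treated against untreated *muMt*-/- (squares). Both comparisons use the same *muMt*-/- libraries. The squares run from 0.26 to 0.82, and none of the values passed the adjusted threshold.

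Depth and nuclear RNA moved with the same groups of TAMs. The nuclear transcripts *Malat1* and *Neat1* summed to 3596 CPM in WT, 6263 in *muMt*-/- and 4028 in GABA-treated mice, beside the mean depths of 244711, 164578 and 201314 molecules. *Malat1* was the more abundant of the pair. Replicate 4 of *muMt*-/- stood highest at 10390 CPM, and the other 5 ran from 4578 to 5994, above every WT library, the highest of which held 3844. Stroma markers, led by *Col3a1*, summed to 5350 CPM in WT replicate 6 and to between 72.3 and 2639 in the other TAM libraries. The part of nuclear RNA, of stromal RNA and of depth in the TAM results on host transcripts, ribosomal protein genes and snoRNA genes was not tested.

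Ribosomal protein genes and other snoRNA hosts were counted in the same comparisons. In *muMt*-/- against WT TAMs, 29 of 82 cytosolic ribosomal protein genes were called, all lower, beside 97 of all 9469 genes called lower, with a median log2 fold change of -0.47 and 79 of 82 negative. In that comparison 46.3% of all genes had positive values. The falls of largest size were those of *Rpl32l* at -2.25, *Rpl28* at -1.14, *Rps27* at -1.01, *Rpl10* at -0.86 and *Rpl7a* at -0.85, and *Rplp1* and *Rps29* were the most abundant of the list. *Rps27* was not called with the robust fit (adjusted p 0.062), and DESeq2 gave *Rpl32l* no adjusted p. How many passed depended on single libraries. The count was 8 without *muMt*-/- replicate 4, 11 without WT replicate 1, 16 without WT replicate 6 and 17 without *muMt*-/- replicate 2. It was 45 without GABA-treated replicate 1, a library of the same fit that is in neither group compared. DESeq2 called 45, all lower, beside 282 of the 3410 genes given an adjusted p. In each of these fits 78 or more of the 82 values were negative.

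Protein-coding genes that host snoRNAs overlap with that list. Of 31, 5 were called, all lower, beside the same 97 of all 9469 genes, with a median of -0.32 and 28 of 31 negative. Among the calls were *Rpl10* at -0.86, *Rpl7a* at -0.85, *Rpl5* at -0.74 and *Rpl4* at -0.58. The count was 2 without WT replicate 1, 2 without *muMt*-/- replicate 4, 9 without *muMt*-/- replicate 5 and 13 without GABA-treated replicate 1, and DESeq2 called 12, beside 282 of all 3410 genes given an adjusted p. It was 8 with total molecules, filterByExpr or the robust fit and 12 with only the compared libraries. *Rpl10* and *Rpl7a* were called with any library left out. *Rpl5* was not called without WT replicate 1 or 5 or *muMt*-/- replicate 4 (adjusted p 0.053 to 0.087), nor *Rpl4* without WT replicate 1 (0.061) or *muMt*-/- replicate 4 (0.064). *Tpt1* and *Hspa8* were the most abundant hosts of this kind.

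Of 15 further noncoding hosts, 10 could be tested in TAMs, where their median in *muMt*-/- against WT was -0.54 with 9 of 10 negative. *Snhg9* was the only call, at -1.14 (SE 0.27, adjusted p 0.019), beside 97 of all 9469 genes called lower. Its adjusted p was 0.0503 without WT replicate 1, 0.060 without WT replicate 6 and 0.057 without *muMt*-/- replicate 4, so that the call rested on each of these libraries. DESeq2 called 2 of the 4 genes of this list that it gave an adjusted p, beside 282 of all 3410 genes given one. *D17H6S56E-5* and *2410006H16Rik* were its most abundant genes.

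In GABA-treated against untreated *muMt*-/- TAMs, 81 of 82 ribosomal protein genes had positive values with a median of 0.34, and 31 of 31 protein-coding hosts with a median of 0.32, which became 30 of 31 with the size factors of DESeq2. Of all genes 55.8% had positive values there. The further noncoding hosts had a median of 0.54 with 8 of 10 positive. edgeR called 0 in all 3 lists, with 52, 18 and 4 genes at an unadjusted p under 0.05, beside 801 of all 9469 genes. DESeq2 called 15 ribosomal protein genes and 5 protein-coding hosts, all higher, after its filter had set aside less abundant genes and with 78 and 29 genes of these lists given an adjusted p, so that the tools differed on this comparison. Over all genes it called 62 of the 1024 given an adjusted p. Of the further noncoding hosts it gave an adjusted p to 1 and called 0. With edgeR the counts were 7 and 2 without GABA-treated replicate 1, and 1 and 1 without *muMt*-/- replicate 5, and without a filter they were 1 and 0. Both comparisons use the *muMt*-/- libraries, so that a value in those libraries enters them with opposite signs.

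Of 119 snoRNA genes that were listed, 15 could be tested in TAMs, and in *muMt*-/- against WT 3 were called, all higher, beside 97 of all 9469 genes called higher: *Snora75* at 1.64 (SE 0.34, adjusted p 0.0053), *Snord22* at 1.30 (SE 0.30, adjusted p 0.012) and *Snora81* at 0.80 (SE 0.14, adjusted p 0.0019). Without *muMt*-/- replicate 4 the adjusted p of *Snord22* was 0.057. The median of the 15 was 1.10 with 12 positive. In GABA-treated against untreated *muMt*-/- TAMs it was -0.46 with 4 positive and 0 called by edgeR, or 1 without a filter. In that comparison 2 of the 15 had an unadjusted p under 0.05, beside 801 of all 9469 genes. DESeq2 gave 1 of the 15 an adjusted p there and called 0. Mature snoRNAs have no poly(A) tail and the reverse transcription was primed by oligo(dT), so that what the molecules under these names are was not tested. *Snora81* and *Snord118* were the most abundant.

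Genes that act on host transcripts or their snoRNAs were counted in *muMt*-/- against WT TAMs, where 1408 of all 9469 genes had an unadjusted p under 0.05. Of all genes edgeR called 194, and DESeq2 called 282 of the 3410 given an adjusted p. Of 18 snoRNP proteins and assembly factors edgeR called 0, with 5 at an unadjusted p under 0.05, a median of -0.26 and 1 called by DESeq2 of 9 given an adjusted p. edgeR called 1 of them without WT replicate 5, *muMt*-/- replicate 5, *muMt*-/- replicate 6 or GABA-treated replicate 1, and 1 with total molecules, filterByExpr, no filter or the robust fit. Of 17 genes of nonsense-mediated decay edgeR called 0, with 3 at an unadjusted p under 0.05, a median of 0.15 and 0 called by DESeq2 of 7 given an adjusted p. *Snu13* and *Nop56* led the first list in abundance, and *Rbm8a* and *Smg1* the second. In GABA-treated against untreated *muMt*-/- TAMs the medians were 0.20 and -0.13, with 0 called by edgeR. There 3 and 0 had an unadjusted p under 0.05, beside 801 of all 9469 genes. DESeq2 gave an adjusted p to 1 and 0 genes and called 0.

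Among the glucocorticoid receptor and its responsive genes, 11 of 13 were tested in TAMs. *Dusp1*, a phosphatase of MAP kinases and with *Mt1* the most abundant of them, was higher in *muMt*-/- than in WT TAMs by a log2 fold change of 0.57 (SE 0.15, adjusted p 0.032). It was the 1 call of 11, beside 194 of all 9469 genes, and 5 of 11 had an unadjusted p under 0.05, beside 1408. Nuclear RNA and depth moved in this comparison too, and their part was not tested. The call ended on leaving out any of 8 libraries, WT replicates 1, 2, 3 and 6 and *muMt*-/- replicates 1 to 4, with adjusted p from 0.053 to 0.13. Without *muMt*-/- replicate 6 or GABA-treated replicate 1 there were 2 calls in the list, as with the size factors of DESeq2, filterByExpr, no filter, the robust fit or only the compared libraries. The medians of the list were 0.24 in that comparison and -0.05 in GABA-treated against untreated *muMt*-/- TAMs. In the latter edgeR called 0 and DESeq2 called 0 of 4 given an adjusted p. Of the list 0 had an unadjusted p under 0.05 there, beside 801 of all 9469 genes.

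CD8+ T cells of the same groups of mice were compared in the same way. *Gas5* had a lowest, median and highest normalized number of 24, 30.4 and 34.8 in WT, of 20.8, 24.3 and 49.5 in *muMt*-/- and of 21.1, 31.0 and 37.8 in GABA-treated mice. The 3 groups overlapped. Its means were 30.2 ± 3.78, 30.5 ± 12 and 30.7 ± 5.40 (SD, n = 6).

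edgeR called 0 of 7 host transcripts in *muMt*-/- against WT, 0 in GABA-treated against untreated *muMt*-/- and 0 in GABA-treated against WT CD8+ T cells. The share of all genes called was 0% in each, and 411, 247 and 459 of 6663 genes had an unadjusted p under 0.05. Of the host transcripts 0, 0 and 1 did, and DESeq2 called 0 of them in each. The 1 was *Snhg3*, host of *Snora73a* and *Snora73b*, with a lowest, median and highest value of 0, 2.02 and 6.01 in WT and 1.86, 4.93 and 8.90 in GABA-treated mice. These groups overlapped, and the log2 fold change was 1.11 (SE 0.51, adjusted p 0.67), and 0.81 to 2.03 with 1 library left out. *Snhg1* ranged most widely among the others, from -1.34 in *muMt*-/- against WT to 1.13 in GABA-treated against untreated mice, with 40 molecules in 13 of 18 CD8+ libraries. With 1 library left out these values ran from -1.82 to -0.70 and from 0.65 to 1.61. *Gas5* was at 0.11, 0.08 and 0.19, and the last of these ran from 0.036 to 0.26 with 1 library left out. The SE was 0.22 to 0.23 for *Gas5* and 0.31 to 0.75 for the other 6.

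Scaling moved all genes in CD8+ T cells. Their median log2 fold change was 0.15, 0.03 and 0.21 with TMM factors and 0.06, -0.02 and 0.06 with the size factors of DESeq2. The ribosomal protein genes had medians of -0.06, 0.21 and 0.18 with TMM factors and of -0.19, 0.15 and -0.01 with those of DESeq2, with 0 of 81 called by edgeR in each comparison and 1, 18 and 11 at an unadjusted p under 0.05. Protein-coding hosts, with 0 of 31 called, had 1, 3 and 3 at that level.

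Whether the groups differed more in TAMs than in CD8+ T cells was tested by the difference of the fold changes, which shares TAM libraries with the choice of *Gas5*. For *muMt*-/- against WT edgeR called 0 of 7 host transcripts, against 0.0118% of all genes, and for GABA-treated against untreated *muMt*-/- it called 0 of 7, against 0% of all genes. At an unadjusted p under 0.05 there were 0 host transcripts in both. DESeq2 called 0 of 7 for GABA, and for the genotype 0 of the 1 it gave an adjusted p, *Gas5* (0.54). *Gas5* had a difference of 0.53 (SE 0.31, adjusted p 0.99) for GABA, and 0.54 with the size factors of DESeq2. For the genotype its difference was 0.19 (SE 0.33, adjusted p 0.91), and 0.41 with those size factors. With 1 library left out these differences ran from 0.33 to 0.68 and from 0.081 to 0.40. The median of all genes in the genotype comparison was -0.30, and -0.11 with the size factors of DESeq2.

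Between the cell types, *Gas5* held a larger share of the RNA in CD8+ T cells. Its mean was 529 CPM in WT CD8+ T cells and 209 in WT TAMs, 519 and 256 in *muMt*-/- mice, and 531 and 402 in GABA-treated mice. The log2 fold change of CD8+ T cells over TAMs in WT mice was 0.99 (SE 0.24, adjusted p 0.0010), a comparison that shares the WT TAM libraries with the choice of *Gas5*. It was 1.18 with the size factors of DESeq2 (adjusted p 0.00011), and the median of all genes moved from -0.36 to -0.20 between these scalings. *Gas5* was the only 1 of 7 called, against 22.7% of all genes called in either direction (508 of 8477 higher), or 21.3% with the size factors of DESeq2. Without CD8+ WT replicate 6 there were 2 calls, the second being *Snhg3* at -1.62 (adjusted p 0.038). *Snhg8*, host of *Snora24*, was at -0.02 and 0.14 with these scalings, 0.34 above the median of all genes with both.

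In *muMt*-/- mice, a comparison added after the data were seen, 3 of 7 host transcripts were called higher in CD8+ T cells than in TAMs, against 654 of all 8477 genes called higher. Calls in either direction made up 21.4% of all genes, or 22% with the size factors of DESeq2. Also called higher were 24 of 31 protein-coding hosts, 4 of 9 further noncoding hosts and 70 of 81 ribosomal protein genes, with the same counts by the size factors of DESeq2. In WT mice 15, 0 and 31 genes of these lists were called higher, and 22, 1 and 56 with those size factors. The 3 host transcripts were *Gas5* at 0.80 (SE 0.23, adjusted p 0.0068), *Snhg6* at 0.996 (SE 0.37, adjusted p 0.044) and *Snhg12*, host of *Snora16a*, *Snora44*, *Snora61* and *Snord99*, at 1.68 (SE 0.62, adjusted p 0.045). With the size factors of DESeq2 the values were 0.77, 0.96 and 1.65, and the adjusted p were 0.0090, 0.047 and 0.0499. The count fell to 0 without CD8+ *muMt*-/- replicate 3, where *Gas5* was at 0.60 (adjusted p 0.064), and to 1 without CD8+ *muMt*-/- replicate 2 or without TAM *muMt*-/- replicate 4. *Snhg6* was also not called without CD8+ *muMt*-/- replicate 5 (adjusted p 0.075) or TAM *muMt*-/- replicate 3 (adjusted p 0.091). *Snhg12* was also not called without CD8+ *muMt*-/- replicate 6 (adjusted p 0.31), TAM *muMt*-/- replicate 2 (adjusted p 0.078) or TAM *muMt*-/- replicate 5 (adjusted p 0.072). Without a filter *Snhg6* was not called (adjusted p 0.053), nor *Snhg12* with the replicate block (adjusted p 0.053), nor either with only the compared libraries (adjusted p 0.078 and 0.052). *Snhg5*, at 1.03, was called with total molecules (1.27, adjusted p 0.024) and without the mixed CD8+ libraries (1.19, adjusted p 0.043). It was also called without CD8+ *muMt*-/- replicate 1, TAM *muMt*-/- replicate 5 or TAM GABA-treated replicate 1 (adjusted p 0.036 to 0.045), and *Snhg8* without TAM *muMt*-/- replicate 5 (1.18, adjusted p 0.032). In these mice nuclear RNA was highest in TAMs, and macrophage RNA in CD8+ libraries, and the part of both was not tested.

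On simulated counts without any difference, TMM scaling over libraries of both cell types shifted the fold changes and gave more p-values under 0.05 than the test allows, whereas the size factors of DESeq2 did not. Comparisons between cell types are therefore read with both. In these simulated counts each gene held the same expected share of the RNA in both cell types. They cannot show how a scaling behaves where those shares differ.

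The 7 host transcripts were also compared with each other over the 18 libraries of each cell type, with group means subtracted. Of 42 relations 0 passed an adjusted p of 0.05 in a two-sided permutation test, and 3 had an unadjusted p under 0.05 for Pearson's r. The relation with the lowest p was that of *Snhg5* and *Snhg8* in TAMs, with a Pearson r of 0.69 (permutation p 0.0055, adjusted p 0.23) and a Spearman rho of 0.75 (permutation p 0.0019, adjusted p 0.079), and an r of 0.58 without the 2 libraries farthest from the *Snhg5* median. In TAMs 16 of 21 values of r were positive with a median of 0.27, and in CD8+ T cells 15 of 21 with a median of 0.10. *Gas5* had r from -0.36 with *Snhg12* to 0.45 with *Snhg8* in TAMs.

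Genes with the pattern most like that of *Gas5* over the 18 TAM libraries, group differences included, were *Siah2* with an r of 0.80, *Zfhx3* with 0.77, *Gnas* with 0.76, *Rps20* with 0.75 and *Snrnp200* with 0.75, out of 5309 genes with a mean of at least 5. In CD8+ T cells they were *Srrm1* with 0.68, *Tab2* with 0.68, *Hspa5* with 0.67, *Nfkbiz* with 0.66 and *Larp1* with 0.64, out of 1882 genes. Without the 2 libraries farthest from the *Gas5* median these values were 0.64, 0.63, 0.72, 0.57 and 0.68 in TAMs and 0.65, 0.70, 0.63, 0.65 and 0.55 in CD8+ T cells. These are descriptions without a test, over libraries that share depth and groups.

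The 7 genes lie on 5 chromosomes of the mouse genome, build GRCm38. *Gas5* spans chr1:161034422-161038539 on the plus strand and holds 10 records that the annotation types as snoRNA, under 9 names. *Snhg1*, at chr19:8723475-8726443, holds 8, and *Snhg12*, at chr4:132308623-132311024, holds 5 under 4 names. *Snhg3* at chr4:132348014-132353686 and *Snhg5* at chr9:88521050-88522929 hold 2 each. *Snhg6* at chr1:9941959-9944118 and *Snhg8* at chr3:123507552-123508404 hold 1 each. *Snhg12* and *Snhg3* are 36989 bases apart.

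Overlapping genes limit what a count under some of these names means. *Snhg3* lies over 5592 bases within *Rcc1* on the same strand, so that the gene a molecule there came from is uncertain. *Rcc1* had 94 molecules in TAMs and 45 in CD8+ T cells, against 180 and 78 for *Snhg3*, and was called in 0 comparisons by edgeR. On the opposite strand *Gm17300*, a noncoding gene, overlaps *Snhg3* by 1611 bases. *Gas5* overlaps *Zbtb37* by 428 bases and *Snhg6* overlaps *Mcmdc2* by 127 bases on the opposite strand, with 15 and 5 molecules for these neighbours over the 36 libraries, and use of the strand was not stated. *Snord22*, inside *Snhg1*, was counted under its own name with 200 molecules in TAMs and 152 in CD8+ T cells, against 76 and 40 for *Snhg1*, and of both only *Snord22* was called in *muMt*-/- against WT TAMs.

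Start regions are shown because a pyrimidine run at the start is the feature that host genes share with ribosomal protein genes. RefSeq held windows of 250 bases before to 50 after the start for 6 of the 7, with 2 starts for *Gas5*. *Snhg6* is named only. A C within 10 bases of the start, followed on the sense strand by at least 5 pyrimidines, was found in 3 genes, at the second *Gas5* start, in *Snhg12* and in *Snhg8*. Of 32851 promoters of the same length 19.2% held such a run. The 60 bases around these starts follow, with the run in capitals.
Gas5, chr1:161035136-161035195, plus strand: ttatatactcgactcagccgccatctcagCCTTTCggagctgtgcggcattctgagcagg
Snhg12, chr4:132308648-132308707, plus strand: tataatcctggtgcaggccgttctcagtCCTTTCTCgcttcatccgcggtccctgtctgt
Snhg8, chr3:123508307-123508366, minus strand: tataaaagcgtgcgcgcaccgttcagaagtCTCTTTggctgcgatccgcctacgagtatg
TGACGTCA, searched on both strands as were the next motifs, was found at the second *Gas5* start, and 1.79% of all promoters held it. TATAAA was found in *Snhg1*, *Snhg3*, *Snhg5* and *Snhg8*, and 13.6% of all promoters held it. CACGTG, held by 7.15% of all promoters, was found in none of the 7 windows. A match is a description of the letters in a window.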

How the data were processed

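RNA of 100 sorted cells per library was sequenced with molecular barcodes, and the authors deposited a table of counts of molecules per gene, with STAR and the mm10 genome named in their processing notes. Values were taken as deposited. Normalized numbers of molecules were computed within each cell type with DESeq2 1.42.0 size factors. Genes with a mean above 1 were tested with the quasi-likelihood F-test of edgeR 4.0.16 in R 4.3.3, TMM factors and 1 coefficient per group, over 18 TAM libraries, 18 CD8+ T cell libraries or all 36, and p-values were adjusted by Benjamini-Hochberg over all genes tested. Called means an adjusted p under 0.05. The SE is the size of the log2 fold change divided by the square root of F. Python 3.11.15 with numpy 2.4.6, scipy 1.17.1, pandas 2.3.3 and matplotlib 3.10.9 was used for permutations (100000, within groups), annotation and plots. Coordinates came from GENCODE and start sequences from RefSeq (GRCm38.p6).

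Members and gene lists were chosen with earlier results of these data known. Besides the members, genes were named when they were the 5 largest calls of a list, its 2 most abundant genes, the 5 genes most like *Gas5*, neighbours or markers. Alternatives were the size factors of DESeq2, total molecules, the Wald test of DESeq2, filterByExpr, no filter, a robust fit, a replicate block, fits of only the compared libraries and leaving out each library. Alternatives on the lists, without 2 mixed CD8+ libraries and between cell types in *muMt*-/- mice were added after seeing the data. The procedure was tested on simulated data, where TMM over all 36 libraries did not keep its error rate and the other scalings did. Apart from genes changed on purpose, these data gave both cell types the same expected share of each gene. The error rate of a scaling where the shares differ was therefore not tested.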

Additional observations from a re-analysis of the deposited data

Results flagged for a closer look

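In 2 of 48 groups of 6 libraries (4.17%) 1 library stood far above the rest of its group by Dixon's criterion, which chance meets in about 1 in 20 groups. *Gas5* reached 131 normalized molecules in replicate 1 of the TAMs of GABA-treated *muMt*-/- mice, where the next library held 71.4. *Snhg3* reached 14.5 in replicate 1 of the WT TAMs, where the next held 10.3. These were 17 and 13 counted molecules.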

How the results depend on the processing

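Single fold changes, single relations and counts on the gene lists were totalled over all settings other than leaving out a library. Counts of host transcripts called, the count of relations called and the order of levels were not part of these totals. In the totals 730 values kept direction and side of the threshold or, where no test was made, moved by less than 1 SD. Of the others 20 changed sign, 2 gained and 6 lost a call, and 21 counts moved by over 1.5 times. With each library left out in turn the numbers were 2122, 55, 5, 38 and 30. Outside these totals, the count of host transcripts called between cell types moved in 1 setting in *muMt*-/- mice. It also moved for 1 library left out in WT and for 3 in *muMt*-/- mice. Alternatives on the lists, without the mixed libraries and in *muMt*-/- mice between cell types were added after seeing the data. filterByExpr left out *Snhg1*, *Snhg5* and *Snhg12* in all comparisons, *Snhg3* in all with CD8+ libraries and *Snhg8* within CD8+ T cells, which gave no value. The causes were not tested.

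Values that changed sign were small, apart from *Snhg8*. *Snhg5* in *muMt*-/- against WT TAMs was -0.042 with total molecules, -0.024 without a filter and -0.0072 with only the compared libraries. In CD8+ *muMt*-/- against WT, *Gas5* was -0.011 with total molecules, -0.0057 with filterByExpr and -0.0091 without the mixed libraries, and *Snhg6* 0.014 without a filter and 0.012 without the mixed libraries. With filterByExpr *Gas5* was -0.013 in CD8+ GABA-treated against untreated *muMt*-/- and -0.019 against WT. *Snhg1* in CD8+ GABA-treated against WT was 0.016 with the replicate block and 0.0053 without the mixed libraries. *Snhg8* in CD8+ T cells against TAMs of WT mice was 0.14 with the size factors of DESeq2, 0.30 with total molecules, 0.14 with the Wald test, 0.25 with filterByExpr, 0.0018 with only the compared libraries and 0.024 without the mixed libraries. *Snhg1* between cell types in *muMt*-/- mice was -0.025 with the replicate block, and the difference of *Snhg3* for GABA was 0.044 without the mixed libraries. *Snhg1* in GABA-treated against WT TAMs, where no test was made, ran from -0.015 without a filter to 0.010. Of the host transcripts called between cell types in *muMt*-/- mice, 1 was called with only the compared libraries.

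Leaving out 1 library gave these ranges. In GABA-treated against WT TAMs, where no test was made, 4 ranges held 0, those of *Snhg1* from -0.32 to 0.24, *Snhg3* from -0.043 to 0.19, *Snhg8* from -0.20 to 0.082 and *Snhg12* from -0.28 to 0.14. In CD8+ *muMt*-/- against WT, *Gas5* ran from -0.11 to 0.19, *Snhg6* from -0.31 to 0.13 and *Snhg12* from -0.29 to 0.58. In CD8+ GABA-treated against untreated *muMt*-/-, *Gas5* ran from -0.050 to 0.23, *Snhg8* from -0.29 to 0.040 and *Snhg12* from -0.19 to 0.70. In CD8+ GABA-treated against WT, *Snhg1* ran from -0.73 to 0.40, *Snhg5* from -0.49 to 0.14 and *Snhg8* from -0.020 to 0.53. *Snhg5* in *muMt*-/- against WT TAMs ran from -0.21 to 0.17. Between cell types *Snhg8* in WT mice ran from -0.36 to 0.29 and *Snhg1* in *muMt*-/- mice from -0.46 to 0.46, and the GABA difference of *Snhg3* from -0.39 to 0.072. The host transcripts called between cell types numbered 1 to 2 in WT and 0 to 4 in *muMt*-/- mice.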

Other observations

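In CD8+ T cells of GABA-treated against untreated *muMt*-/- mice, 9 of 9 snoRNA genes tested had negative values with a median log2 fold change of -0.71, and 15 of 16 snoRNP proteins and assembly factors had positive values with a median of 0.57, beside 0.03 for all genes. Against WT, with the same GABA-treated libraries, the snoRNA genes were negative in 9 of 9, with a median of -0.84. Of the proteins 10 of 16 were positive there with a median of 0.20, beside 0.21 for all genes. Of all genes 53.5% were positive against untreated *muMt*-/- and 65.5% against WT. In *muMt*-/- against WT 6 of 9 snoRNA genes, with a median of -0.12, and 12 of 16 of the proteins were negative. That comparison shares its *muMt*-/- libraries with the one for GABA. The signs for GABA-treated against untreated mice held with TMM factors, the size factors of DESeq2 and total molecules. edgeR and DESeq2 called 0 of both lists, with 2 and 3 genes at an unadjusted p under 0.05, beside 247 of all 6663. Nuclear RNA in these cells fell from 4059 CPM in WT to 3432 in *muMt*-/- and 2928 in GABA-treated mice, while mean depth rose from 43807 to 67277 and 81364 molecules. Macrophage markers averaged 269, 1333 and 1225 CPM in the same groups. The part of all 3 was not tested.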
